A study of Mus musculus with 3 samples.

Results

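Active NIK, the NF-κB-inducing kinase, was set against NIK(KA) in the mouse α-cell line αTC1-6, 1 library each. NIK is encoded by Map3k14. Published work uses KA for a substitution in the kinase site, although the letters are not explained in the labels. The comparison covers 12950 of the 52948 gene IDs measured. These are the genes with a mean FPKM (fragments per kilobase of gene length per 1e+06 counted reads) of at least 1 over the NIK, NIK(KA) and β-Gal libraries, with Map3k14 left out. The difference of a gene is log2(FPKM + 1) in NIK minus log2(FPKM + 1) in NIK(KA). A gene is called higher or lower when that difference is at least 1 in size, which is 2-fold in FPKM + 1. Phrases such as within 2-fold refer to this rule. A scarce gene can thus differ by more than 2-fold in FPKM and not be called. The filter uses the 3 libraries and not the direction of the difference, but a gene nearly absent from NIK(KA) can pass it only through NIK or β-Gal.

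The cells derive from a mouse tumour of glucagon-producing pancreatic α cells and were grown in DMEM with fetal bovine serum. They were infected with an adenovirus for NIK, for NIK(KA) or for the control protein β-galactosidase (β-Gal), and total RNA was taken 16 h later. All 3 groups thus carry adenovirus, and all come from 1 cell line. The β-Gal values are given as context. In bulk RNA from a culture, fewer cells that carry a transcript and less of it per cell cannot be told apart.

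NIK is the central kinase of the non-canonical NF-κB pathway. In resting cells its protein is kept scarce by an ubiquitin ligase complex built from TRAF2, TRAF3 and the cIAP proteins. Once NIK accumulates it activates the kinase IKKα (gene Chuk), which leads to processing of p100, the product of Nfkb2, and to nuclear entry of dimers with RelB. The pathway is best known for lymphoid organ formation, B-cell survival and the maturation of thymic epithelium and of the M cells over mucosal lymphoid tissue. In islet α cells the secreted product is glucagon, made from the Gcg precursor by the convertase PC2 (gene Pcsk2).

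The libraries held 15523580 counted reads for NIK, 16652922 for NIK(KA) and 18629668 for β-Gal, with 22519, 22824 and 22186 genes detected in that order. With 1 library in each group no difference has a replicate check, and none is tested. Fold changes are ratios of reads per library total, with an exact 95% interval that covers counting error only, since the labels name no molecular identifiers and PCR copies may count as separate reads. Where NIK(KA) held 0 reads, the fold is taken against 3 reads in that library and written as at least so many fold. For 1799 of the 12950 genes, Nfkb2, Nfkbie, Cd74, Col22a1 and Cdkn2b among them, the gene length implied by the values did not match the annotation within 1 base, so their read numbers and interval widths are uncertain.

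The overexpressed gene was examined first. Map3k14 (chr11:103219762-103267472 on GRCm38, minus strand) had 8.42 FPKM in NIK, 12.1 in NIK(KA) and 5.35 in β-Gal, from 283, 435 and 216 reads in that order. Both libraries labelled as carrying the kinase thus lay above β-Gal, and NIK lay below NIK(KA). The labels do not say which species or stretch of the coding sequence the virus carried, so what share of these reads comes from the virus is not known.

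The α-cell label was checked against markers. Gcg was at 6955 FPKM in NIK, 10197 in NIK(KA) and 12093 in β-Gal. The β-cell and δ-cell genes Ins1, Ins2, Pdx1 and Sst had 0 reads in each of the 3 libraries. They come from a list of 14 genes of islet cells apart from α cells, of which 7 were detected. Of the 14, 4 had enough reads for the comparison, G6pc2, Nkx6-1 and Ghrl among them. All 14 together came to 108 FPKM in NIK, 111 in NIK(KA) and 108 in β-Gal, so not every such gene was absent. Of 17 leukocyte markers, only Cd68 passed the filter, at 3.12 FPKM in NIK and 1.52 in NIK(KA). Summed over that whole list the level was 4.79 FPKM in NIK and 3.91 in NIK(KA), and the defining gene Ptprc (CD45) had 0 reads in NIK against 1 in NIK(KA). Of 18 fibroblast, endothelial and acinar markers 3 passed the filter, and the list summed to 7.75 FPKM in NIK and 7.32 in NIK(KA). Heart and skeletal muscle markers, 21 in all, summed to 7.94 FPKM in NIK, 11.7 in NIK(KA) and 47.7 in β-Gal. Of the 7 that passed the filter 6 were at least 2-fold lower in NIK than in β-Gal, and 6 in NIK(KA) than in β-Gal. Between NIK and NIK(KA) 0 of the 7 met the rule. The source of these reads was not tested. The other 16 leukocyte markers were under the filter, while the read ratio of Cd68 between NIK and NIK(KA) was 2.06 (1.23 to 3.52). The part of Cd68-bearing cells in the results was not tested.

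In NIK, 657 genes were higher and 142 lower than in NIK(KA), 5.07% and 1.10% of the 12950. These 2 shares are the background for the list counts below. Protein-coding genes made up 530 of the higher and 91 of the lower ones, 4.75% and 0.816% of the 11150 coding genes. The 2 directions differed in size as well as in number. Among the higher coding genes 338 differed by 1 to 2 on the log2 scale, 123 by 2 to 3, 34 by 3 to 4 and 35 by 4 or more. Among the lower coding genes 87 differed by 1 to 2 and 4 by 2 to 3, and 0 by more. The counting interval excluded 1 for 530 of the 530 higher and 89 of the 91 lower coding genes. The median difference over all 12950 genes was -0.03, 54.4% of the differences were below 0, and the 5th and 95th percentiles were -0.59 and 1.01.

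The higher genes took more of the library. The 530 coding genes held 4.32% of the NIK reads and 1.16% of the NIK(KA) reads, while the 91 lower genes held 0.384% and 0.908%. The median difference of the 530 was 1.63 between NIK and NIK(KA) and 0.03 between NIK(KA) and β-Gal, and that of the 91 was -1.17 and 0.01. These 2 comparisons share the NIK(KA) library. Of the higher genes, 150 were under 1 FPKM in NIK(KA) and 141 were at 10 FPKM or more there, so they comprise both genes that were scarce in NIK(KA) and genes that were well represented there. Of the 91 lower genes, 14 were under 1 FPKM in NIK. Nearest to the rule, Slc39a1 lay just inside it with a difference of 1.00 (33.3 FPKM in NIK, 16.2 in NIK(KA)) and Kcnh4 just outside it (2.31 and 0.655). On the lower side Klf15 lay just inside at -1.01 (2.66 and 6.38) and Txnip just outside (19.8 and 40.6).

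**Figure D1:**
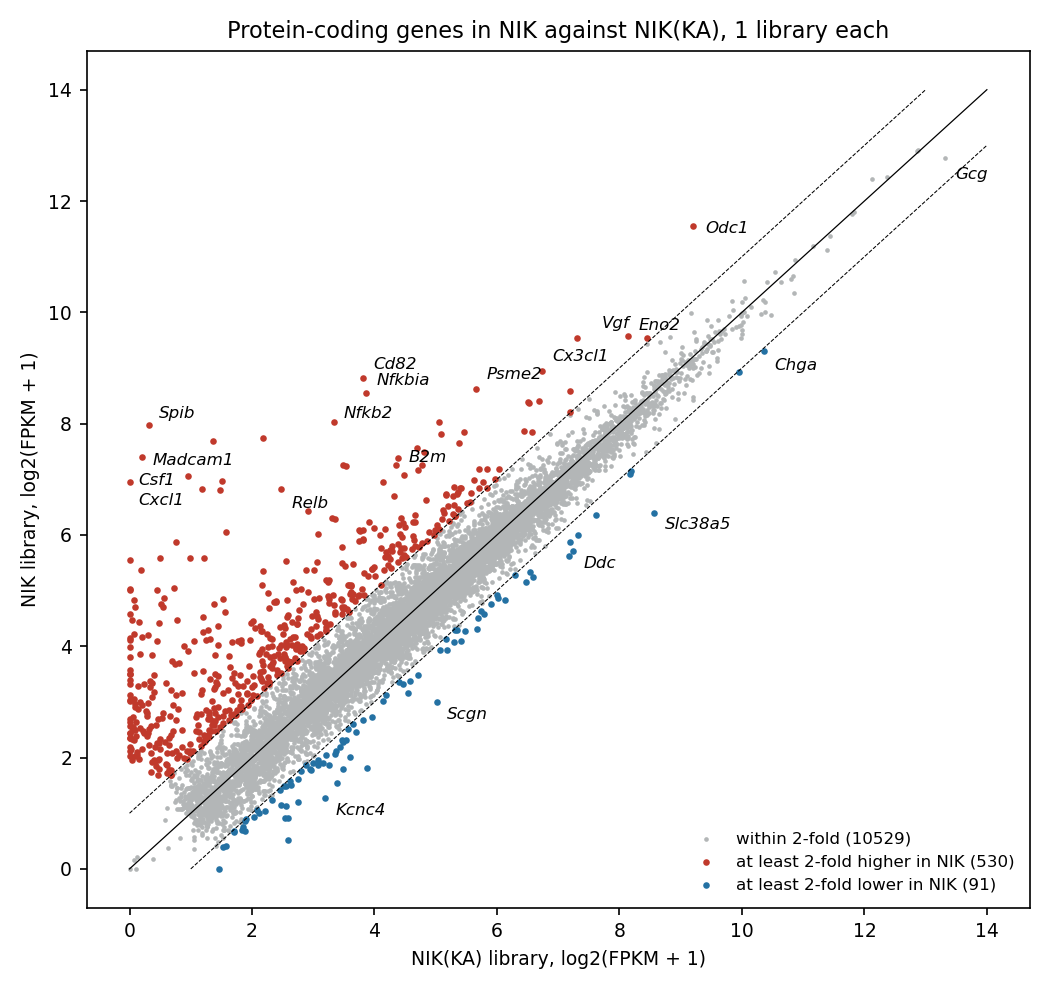
Level of each protein-coding gene in the NIK library (vertical axis) against the NIK(KA) library (horizontal axis), both as log2(FPKM + 1), 1 library each. The solid line marks equal levels and the dashed lines a 2-fold difference; the 530 higher genes spread up to 7.67 above the solid line, while the lower genes reach a difference of -2.17, that of Slc38a5.

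Genes at the far end of the higher side include targets and components of NF-κB signalling, and genes at the far end of the lower side include transporters of the α cell. The sequences around the start of 4 higher genes and of the leading lower gene, Slc38a5, are shown because the results turn on these genes. Each is the RefSeq window on GRCm38.p6 from 250 bases before to 50 bases after an annotated start, read 5′ to 3′ on the strand of the gene. Capitals mark matches, on either strand, to the degenerate NF-κB consensus, a motif added after the values were seen.

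Nfkb2: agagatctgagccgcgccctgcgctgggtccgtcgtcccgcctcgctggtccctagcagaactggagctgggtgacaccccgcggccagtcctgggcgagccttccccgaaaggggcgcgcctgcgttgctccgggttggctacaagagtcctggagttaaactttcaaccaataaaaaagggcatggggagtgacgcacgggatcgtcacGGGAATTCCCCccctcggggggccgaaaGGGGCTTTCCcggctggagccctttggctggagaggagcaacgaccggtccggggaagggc
Nfkbie: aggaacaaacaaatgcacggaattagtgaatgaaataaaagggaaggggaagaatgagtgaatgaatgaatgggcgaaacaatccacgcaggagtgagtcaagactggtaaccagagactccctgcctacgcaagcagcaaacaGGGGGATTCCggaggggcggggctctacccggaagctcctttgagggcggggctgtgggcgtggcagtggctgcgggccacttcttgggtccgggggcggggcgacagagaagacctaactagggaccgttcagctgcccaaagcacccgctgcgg
Csf1: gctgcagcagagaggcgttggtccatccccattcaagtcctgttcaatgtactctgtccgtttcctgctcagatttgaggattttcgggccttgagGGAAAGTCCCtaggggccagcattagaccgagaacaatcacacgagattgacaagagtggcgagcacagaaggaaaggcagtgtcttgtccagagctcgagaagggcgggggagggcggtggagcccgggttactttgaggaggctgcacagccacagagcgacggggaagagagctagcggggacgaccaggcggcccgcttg
Cxcl1: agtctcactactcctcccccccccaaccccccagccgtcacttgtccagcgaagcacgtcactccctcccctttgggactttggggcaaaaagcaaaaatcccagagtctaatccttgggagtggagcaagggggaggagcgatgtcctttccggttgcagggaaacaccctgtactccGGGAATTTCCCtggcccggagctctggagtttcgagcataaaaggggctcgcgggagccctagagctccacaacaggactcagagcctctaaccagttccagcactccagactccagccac
Slc38a5: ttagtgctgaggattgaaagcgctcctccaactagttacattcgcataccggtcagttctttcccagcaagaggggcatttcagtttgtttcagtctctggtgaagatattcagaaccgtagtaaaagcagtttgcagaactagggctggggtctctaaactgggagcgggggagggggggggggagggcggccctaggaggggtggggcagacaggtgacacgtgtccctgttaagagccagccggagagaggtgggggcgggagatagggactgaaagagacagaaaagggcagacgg

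The windows lie at chr19:46304487-46304786 (Nfkb2, plus strand, 1 of its 3 windows, the one with most matches), chr17:45555450-45555749 (Nfkbie, plus strand), chr3:107760420-107760719 (Csf1, minus strand), chr5:90890995-90891294 (Cxcl1, plus strand) and chrX:8271131-8271430 (Slc38a5, plus strand). The degenerate consensus matched 3 times in the Nfkb2 window, 2 of the matches overlapping, 1 time each in the Nfkbie and Csf1 windows, and 2 times, overlapping, in the Cxcl1 window. It had 0 matches in the Slc38a5 window. At least 1 such match was found for 9.55% of the 27025 genes with a window. A looser NF-κB motif, GGG and CC with any 5 bases between, was found on either strand for 53.5% of them. The core of the interferon-response motif, TTTC repeated after any 2 bases, was found for 3.99%. The looser motif, whose matches include those of the consensus, matched 7 times in the Nfkb2 window and 0 times in that of Slc38a5, and the interferon-response core matched in 0 of the 5 windows. Among the 8860 of 11149 coding genes past the filter that had a window, 12.5% held the consensus. The looser motif was found for 72.8% of these and the interferon-response core for 3.40%. A window was at hand for 401 of the 530 higher and 70 of the 91 lower coding genes. No comparison of the called genes with these shares is given, because the consensus was added after the values were seen and genes lack windows. A match describes letters and does not show that a factor binds there.

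All of the subunits of NF-κB were measured, and 4 of 5 were higher in NIK. Nfkb2, which encodes the p100 precursor, was at 261 FPKM in NIK, 9.07 in NIK(KA) and 5.80 in β-Gal, 28.8-fold higher in NIK than in NIK(KA) (26.3 to 31.6). Relb (chr7:19606217-19629438), its non-canonical partner, was at 112 FPKM in NIK, 4.57 in NIK(KA) and 3.82 in β-Gal. The difference was 4.70 for Nfkb2 and 4.35 for Relb on the log2 scale. The canonical subunits differed less. Nfkb1, which encodes p105 and p50, was at 46.2 FPKM in NIK and 18.0 in NIK(KA), and Rel at 9.42 and 3.49. Rela (p65) did not meet the rule, at 40.8 FPKM in NIK, 30.7 in NIK(KA) and 30.1 in β-Gal.

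Of 15 measured inhibitors and feedback regulators of NF-κB, 8 were higher in NIK and 0 lower, against 5.07% and 1.10% of all genes, with a median difference of 1.09. Nfkbie, which encodes IκBε, differed most, at 124 FPKM in NIK and 1.83 in NIK(KA), 67.3-fold higher (53.5 to 85.9). Nfkbia, which encodes IκBα, was at 373 FPKM in NIK, 13.5 in NIK(KA) and 12.6 in β-Gal. Both hold NF-κB dimers in the cytoplasm. Tnfaip3 (A20), which edits ubiquitin chains to end signalling, was at 18.0 FPKM in NIK and 1.30 in NIK(KA), and its partner Tnip1 at 150 and 10.5. The nuclear IκB proteins were higher by less, with Nfkbid 3.08-fold (2.55 to 3.73), Nfkbiz 3.13-fold (2.65 to 3.71) and Bcl3 2.43-fold (1.72 to 3.47). Zc3h12a, which encodes the RNase regnase-1, was 8.58-fold higher (5.44 to 14.2) on 168 and 21 reads. The 7 genes that did not meet the rule include Nfkbib (41.1 FPKM in NIK, 28.5 in NIK(KA)), the deubiquitinase gene Cyld (19.5 and 13.2) and Tax1bp1 (114 and 124).

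The complexes that act on NIK and on the IKK kinases were mostly within 2-fold, with 7 of 27 measured genes higher, 0 lower and a median difference of 0.37. Of the 7 higher genes 4 were at 1 FPKM or more in NIK(KA), and 5.07% of all genes were higher. Ikbke, an inducible IKK-related kinase gene, was at 28.2 FPKM in NIK and 0.477 in NIK(KA), 59.2-fold higher (36.8 to 102). Birc3, which encodes cIAP2, had 202 reads in NIK against 0 in NIK(KA), at least 72.2-fold higher, and Birc2, which encodes cIAP1, was at 82.7 and 34.0 FPKM. The kinase genes Ripk2 and Map3k8 were 6.47-fold (5.65 to 7.44) and 6.44-fold (4.68 to 9.03) higher. Traf4 was at 15.3 FPKM in NIK and 4.95 in NIK(KA), whereas Traf2 (26.6 and 14.9) and Traf3 (28.5 and 14.9) did not meet the rule. Neither did the IKK subunit genes. Chuk was at 60.1 FPKM in NIK and 65.7 in NIK(KA), Ikbkb at 30.6 and 23.5, and Ikbkg at 21.2 and 19.7.

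Secreted signals to leukocytes were among the genes furthest apart. Of 40 listed chemokines 8 passed the filter, 6 of them higher in NIK and 0 lower, and only 1 of these 6, Cx3cl1, reached 1 FPKM in NIK(KA). Cxcl1, a chemoattractant of neutrophils, had 2688 reads in NIK, 0 in NIK(KA) and 1 in β-Gal, at least 961-fold higher in NIK than in NIK(KA). Ccl2, which recruits monocytes, had 472, 0 and 0 reads, and Cxcl2 had 343, 0 and 0. Cxcl10, which draws T cells, had 345 reads in NIK against 1 in NIK(KA). Ccl19, a chemokine of lymph nodes, was at 3.57 FPKM in NIK, on 40 reads, and at 0 in NIK(KA). Cx3cl1, a chemokine made as a membrane protein, was already abundant without active NIK, at 490 FPKM in NIK, 106 in NIK(KA) and 109 in β-Gal. Ccl25 and Ccl27a were at 21.8 and 26.1 FPKM in NIK and at 22.1 and 29.8 in NIK(KA).

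Of 45 listed interleukins, colony-stimulating factors and TNF-family ligands 8 passed the filter, 6 of them higher and 0 lower. Only 1 of these 6, Tnfsf10, reached 1 FPKM in NIK(KA), and 5 of the 8 were under 1 FPKM there. Csf1 (chr3:107741048-107760469), the growth factor of macrophages, was at 132 FPKM in NIK, 0.936 in NIK(KA) and 0.918 in β-Gal, 141-fold higher in NIK than in NIK(KA) (99.3 to 208). Il15, which sustains natural killer and memory T cells, had 120 reads in NIK against 0 in NIK(KA), and Il27 had 212 and 5. Ltb, the lymphotoxin that signals through the NIK-coupled receptor LTβR, had 121 reads in NIK against 3 in NIK(KA), a ratio of 43.3 (14.5 to 213). Its receptor gene Ltbr was at 94.7 FPKM in NIK and 105 in NIK(KA). Cd70 had 68 reads in NIK against 0 in NIK(KA), and Tnfsf10 (TRAIL) was at 4.61 and 1.47 FPKM. No gene of the 10 listed interferons passed the filter. They summed to 0 reads in NIK.

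Receptors and adhesion molecules were higher in part. The TNF receptor list had 15 measured genes, 6 of them higher and 0 lower. Only 1 of the 6 reached 1 FPKM in NIK(KA), and 5 of the 15 were under 1 FPKM there. Cd40, a receptor that itself feeds the non-canonical pathway, had 777 reads in NIK, 0 in NIK(KA) and 0 in β-Gal, at least 278-fold higher in NIK than in NIK(KA). Fas, the death receptor, was at 9.02 FPKM in NIK and 0.176 in NIK(KA), and Ngfr (p75) was 17.7-fold higher (13.3 to 24.2). The widely used receptor gene Tnfrsf1a was at 194 and 159 FPKM. Among 21 cytokine receptors 5 were higher and 1 lower, against 5.07% and 1.10% of all genes. Ifngr2, a chain of the interferon-γ receptor, was at 77.6 FPKM in NIK and 8.95 in NIK(KA), and Il1r2, a decoy receptor for interleukin 1, at 26.7 and 4.27. Il10rb, Il4ra and Il6st were 4.72-fold (3.75 to 5.99), 2.50-fold (2.14 to 2.94) and 2.28-fold (2.17 to 2.39) higher. The lower gene was Prlr, the prolactin receptor, at 7.95 FPKM in NIK and 22.4 in NIK(KA).

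Leukocyte adhesion genes were higher for 7 of the 12 measured and lower for 0. Madcam1, the mucosal addressin that binds α4β7 integrin on lymphocytes, was at 168 FPKM in NIK, 0.151 in NIK(KA) and 0 in β-Gal, from 3104, 3 and 0 reads. Its difference of 7.20 was the second of all coding genes. Vcam1 had 1319 reads in NIK against 0 in NIK(KA), at least 472-fold higher, and Icam1 had 781 and 1. Srgn, which encodes the granule proteoglycan serglycin, was at 206 FPKM in NIK, 1.58 in NIK(KA) and 0.424 in β-Gal. Cd47 was 2.29-fold higher (2.15 to 2.44), at 65.6 and 28.7 FPKM. Only 3 of the 7 higher adhesion genes reached 1 FPKM in NIK(KA), and 4 of the 12 were under 1 FPKM there. The 8 measured integrins all had at least 1 FPKM in NIK(KA), so the lists are not alike. Of these 0 met the rule, and Itgb1 was at 168 FPKM in NIK and 162 in NIK(KA). Cgn, which encodes the tight-junction protein cingulin, was 12.9-fold higher (10.4 to 16.3), while Tjp1 was at 26.6 and 29.8 FPKM.

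**Figure D2:**
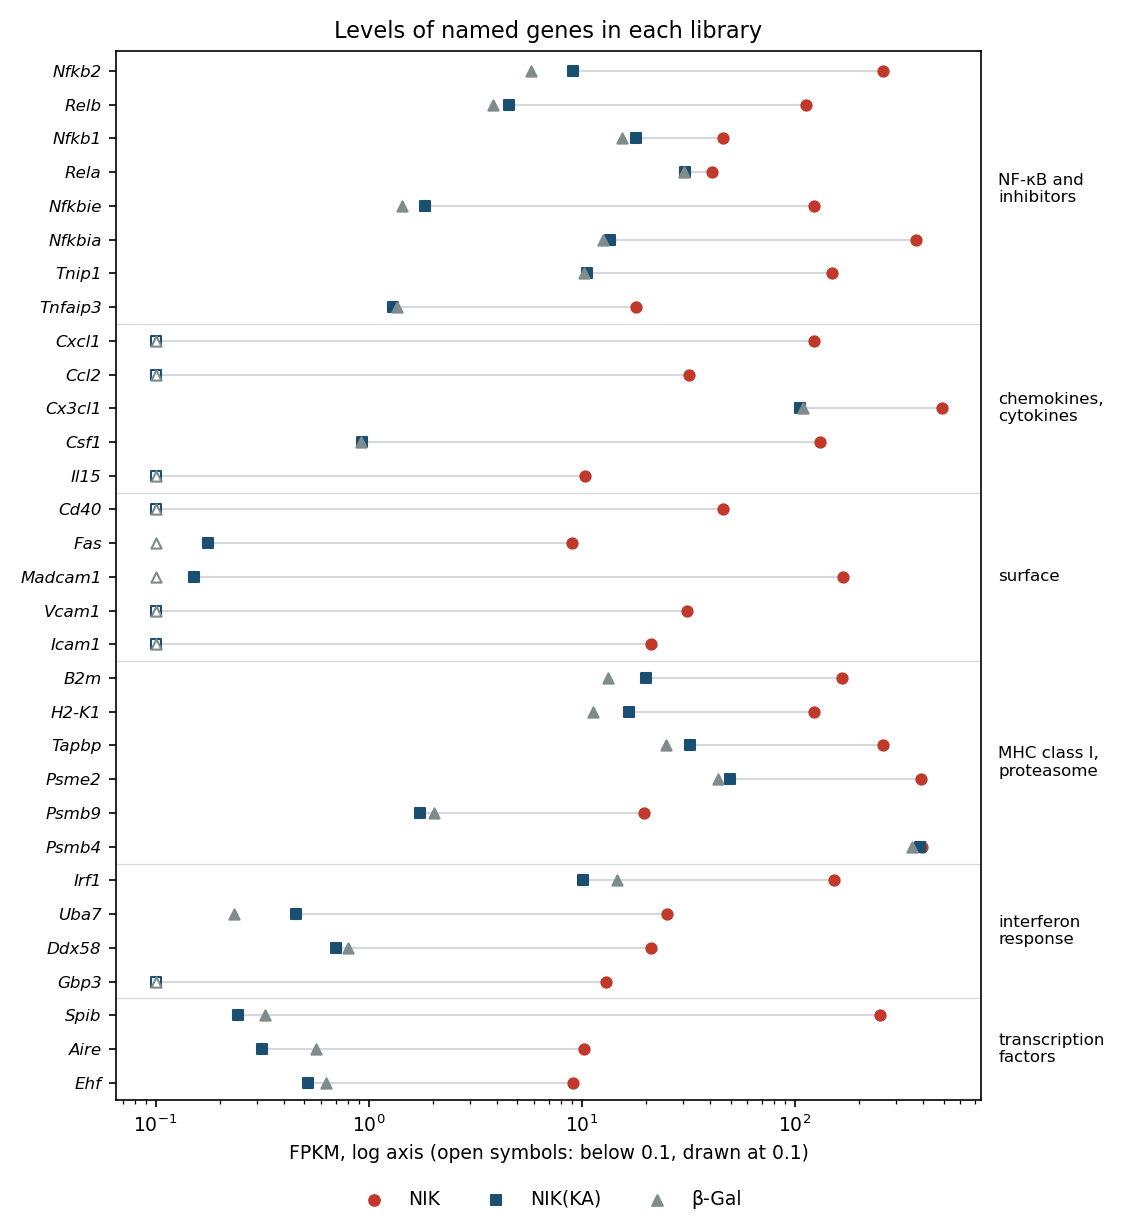
FPKM of 31 named genes, most of them higher in NIK, on a log axis in the NIK (circles), NIK(KA) (squares) and β-Gal (triangles) libraries, 1 library each. The NIK value of Nfkb2 (261 FPKM) stands far right of its NIK(KA) value (9.07), while those of the proteasome gene Psmb4 (395 and 387) nearly coincide; open symbols stand for values under 0.1 FPKM, drawn at 0.1.

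Class I MHC molecules carry peptides from the cell interior to the surface for T cells. Of 17 measured genes of class I chains and peptide loading, 13 were higher in NIK and 0 lower, with a median difference of 1.90, and 11 of the 13 were at 1 FPKM or more in NIK(KA). B2m, the light chain, was at 166 FPKM in NIK, 19.97 in NIK(KA) and 13.4 in β-Gal, 8.31-fold higher in NIK than in NIK(KA) (7.35 to 9.43). H2-K1, a heavy chain, was at 123 and 16.6 FPKM. Tapbp, the tapasin that edits bound peptides, was at 259 and 32.2 FPKM. Its relative Tapbpl was 6.07-fold higher (5.35 to 6.90) and Erap1, which trims peptides, 5.34-fold (4.71 to 6.08). The general chaperones that also serve loading did not meet the rule, with Calr at 928 FPKM in NIK and 784 in NIK(KA) and Pdia3 at 525 and 568. H2-T24 was at 1.30 and 3.09 FPKM. The H2 genes are near-identical copies, so how reads are divided among them is uncertain.

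The proteasome split by subunit type. Of 8 genes of the immunoproteasome and its PA28 cap 5 were higher, and of 34 constitutive subunit genes 1 was, with 0 lower in each and medians of 1.93 and 0.01. Of all genes 5.07% were higher. The immunoproteasome replaces 3 catalytic subunits by forms that favour peptides for class I. Those 3 were higher, with Psmb10 at 151 FPKM in NIK and 26.4 in NIK(KA), Psmb9 at 19.7 and 1.73, and Psmb8 at 4.58 and 0.166. The PA28 genes Psme1 and Psme2 were at 64.0 and 391.7 FPKM in NIK and at 20.5 and 49.6 in NIK(KA). Psme3, the nuclear cap, was at 192 and 204 FPKM. The single constitutive gene was Psmd10, which encodes gankyrin, 3.23-fold higher (2.75 to 3.81). Psmb4, Psmd2 and Psmc1 were at 395, 327 and 278 FPKM in NIK and at 387, 343 and 305 in NIK(KA).

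Genes of MHC class II were mostly low. Of 24 listed class II and co-stimulation genes 6 had enough reads for the comparison, 3 of them higher and 1 of these 3 at 1 FPKM or more in NIK(KA). Cd74, the invariant chain, had 830 reads in NIK against 3 in NIK(KA), a ratio of 297 (101 to 1442). Icosl, the ligand of the T-cell receptor ICOS, was at 46.9 FPKM in NIK and 0.411 in NIK(KA). Rfx5, a factor of class II promoters, was at 22.8 and 10.0 FPKM. H2-DMa, which loads peptides on class II, was at 2.51 and 1.69 FPKM.

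Part of the genes of the interferon response were higher in NIK. Where 5.07% of all genes were higher, 3 of 10 measured interferon regulatory factors were, 2 of them at 1 FPKM or more in NIK(KA). Irf1 (chr11:53770014-53778374) was at 153 FPKM in NIK, 10.2 in NIK(KA) and 14.7 in β-Gal, 14.98-fold higher in NIK than in NIK(KA) (12.9 to 17.4). Irf5 had 103 reads in NIK against 0 in NIK(KA), Irf7 was at 10.4 and 1.63 FPKM, and Irf3 at 27.5 and 30.6. Among 26 genes of JAK, STAT and SOCS proteins 5 were higher, 4 of them at 1 FPKM or more in NIK(KA). Jak3 and Tyk2 were 2.61-fold (2.29 to 2.98) and 2.40-fold (2.18 to 2.64) higher, and the feedback inhibitor Socs1 4.94-fold (3.13 to 8.13). Stat3 was at 77.4 and 74.6 FPKM.

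Effectors below those factors were higher for 14 of the 29 measured and lower for 0, with a median difference of 0.91. Of the 14, 11 were at 1 FPKM or more in NIK(KA), and 5.07% of all genes were higher. Uba7, which activates the ubiquitin-like protein ISG15, was at 25.1 FPKM in NIK and 0.456 in NIK(KA), 55.1-fold higher (32.6 to 101). Bst2 (tetherin), which holds budding virus at the membrane, was 8.33-fold higher (4.66 to 16.2), and the cytidine deaminase genes Apobec1 and Apobec3 were 8.82-fold (6.06 to 13.3) and 6.68-fold (5.05 to 8.97) higher. Samhd1 was at 50.4 and 41.7 FPKM. Among 9 nucleic acid sensors 3 were higher, all of the RIG-I family. Ddx58 (RIG-I) was at 21.1 FPKM in NIK and 0.706 in NIK(KA), Ifih1 (MDA5) at 7.09 and 1.54, and Dhx58 (LGP2) at 4.59 and 1.53. Of 22 listed guanylate-binding proteins and IRG GTPases 5 passed the filter, each under 1 FPKM in NIK(KA) and each higher in NIK. Gbp3 had 308 reads in NIK against 0 in NIK(KA), and Gbp9, Gbp4 and Gbp5 had 445, 287 and 238 in NIK and 0 in NIK(KA). The Gbp genes are close copies of each other, which makes the split of reads among them uncertain. Among Toll-like and interleukin-1 receptor genes 4 of 13 were higher, with Tlr2 at 5.24 and 0.0797 FPKM and the inhibitor Irak3 at 10.0 and 3.05.

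**Figure D3:**
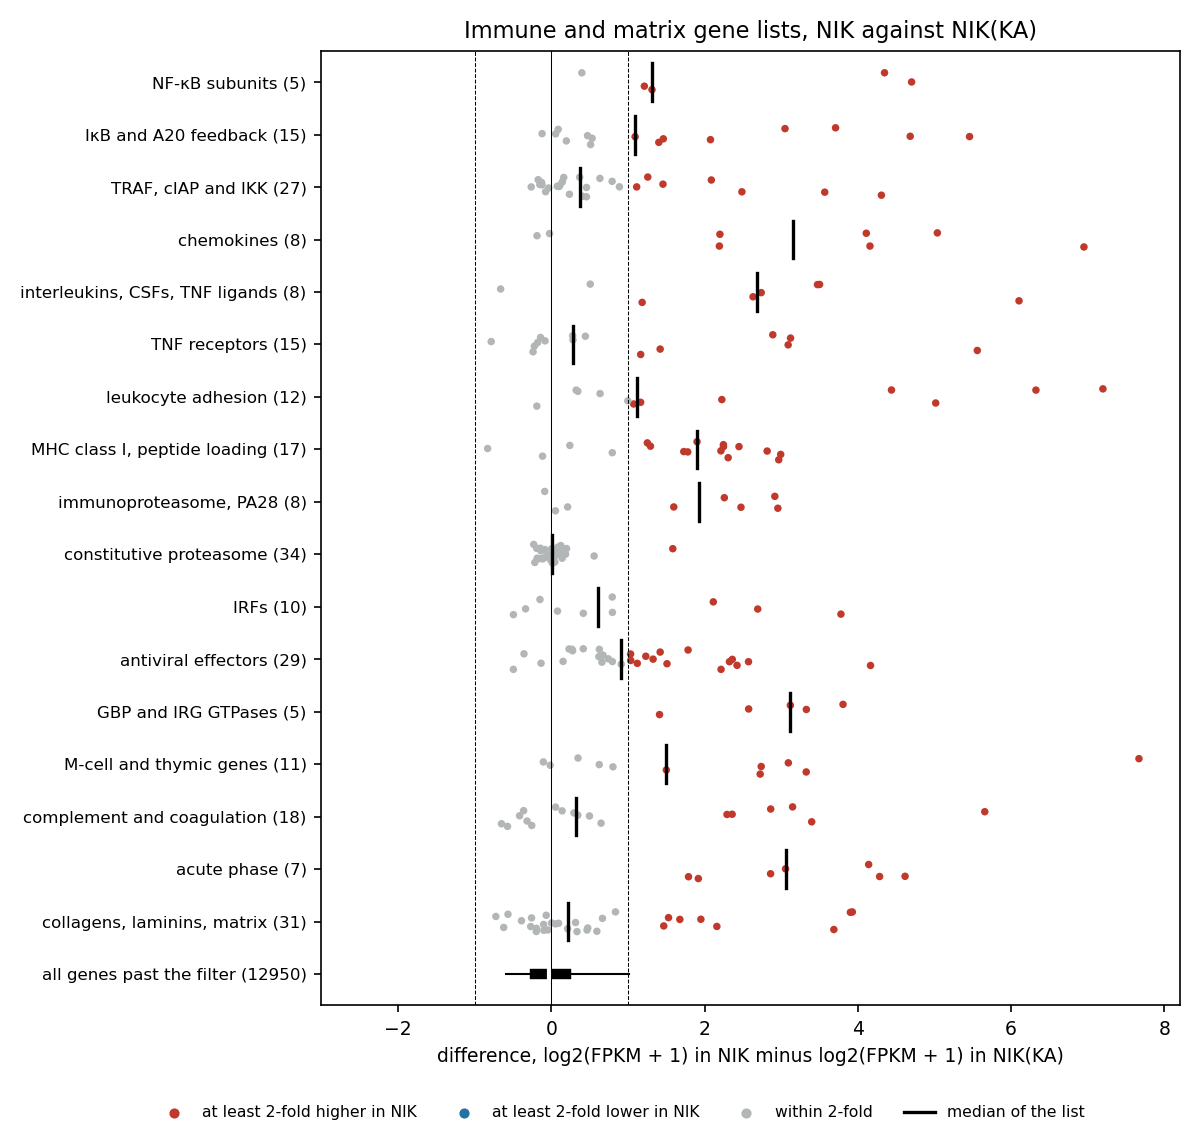
Difference of each gene that passed the filter, by list, as log2(FPKM + 1) in NIK minus log2(FPKM + 1) in NIK(KA), with the number of genes in brackets, a bar at the median and dashed lines at a 2-fold difference; the bottom row gives the 5th to 95th and 25th to 75th percentiles and the median of all 12950 genes. The constitutive proteasome lies around 0.01 and the immunoproteasome around 1.93, and no gene in these lists is 2-fold lower.

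The gene furthest apart of all was Spib (chr7:44525993-44532071), an ETS-family transcription factor required for the M cells of the gut. It was at 252 FPKM in NIK, 0.243 in NIK(KA) and 0.326 in β-Gal, from 5790, 6 and 9 reads, a difference of 7.67 and 1035-fold higher in NIK than in NIK(KA) (475 to 2822). Of 11 measured genes of the M-cell and thymic list 6 were higher, 3 of them at 1 FPKM or more in NIK(KA). Aire, which drives the display of tissue antigens in thymic epithelium, was at 10.2 FPKM in NIK and 0.317 in NIK(KA). The M-cell genes Tnfaip2 and Marcksl1 were 17.0-fold (12.04 to 24.9) and 6.78-fold (6.32 to 7.29) higher. Epithelial ETS factors were higher too, with Ehf at 9.14 and 0.519 FPKM and Elf3 at 16.5 and 5.17. Sox9, a factor of pancreatic duct cells, was at 8.69 FPKM in NIK, 2.63 in NIK(KA) and 3.15 in β-Gal.

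Of 18 measured complement and coagulation genes 6 were higher, 3 of them at 1 FPKM or more in NIK(KA), 0 were lower and 12 did not meet the rule. C3, the core protein of complement, was at 113 FPKM in NIK, 1.26 in NIK(KA) and 1.16 in β-Gal, 89.6-fold higher in NIK than in NIK(KA) (64.3 to 129). The proteases that start the classical pathway, C1s1 and C1ra, had 218 and 220 reads in NIK and 0 and 6 in NIK(KA). Clu, which encodes the chaperone and complement inhibitor clusterin, was at 188 and 25.02 FPKM. Of 42 listed acute-phase genes 7 passed the filter and each was higher, 2 of them at 1 FPKM or more in NIK(KA). Lcn2, which withholds bacterial iron carriers, had 361 reads in NIK against 1 in NIK(KA), and Saa3 had 347 and 2. Nos2, the inducible nitric oxide synthase, had 712 and 0 reads, at least 255-fold higher.

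Genes of the extracellular matrix were higher in part, where 5.07% of all genes were higher and 1.10% lower. Of 31 measured collagens, laminins and matrix enzymes 8 were higher, 2 of them at 1 FPKM or more in NIK(KA), and 0 were lower. Lamb3, a laminin chain of epithelial basement membrane, had 387 reads in NIK against 4 in NIK(KA). Col18a1 and Col22a1 were 75.2-fold (43.7 to 142) and 50.6-fold (32.2 to 84.5) higher, and Lama5 14.4-fold (9.03 to 24.3). Among 33 secreted proteases and inhibitors 6 were higher, 1 of them at 1 FPKM or more in NIK(KA). Mmp9, a gelatinase of migrating leukocytes, was at 57.3 FPKM in NIK, 0.696 in NIK(KA) and 0 in β-Gal, and Mmp13, a collagenase, at 4.24 and 0.225 in NIK and NIK(KA). The abundant lysosomal protease Ctsz was at 344 FPKM in NIK and 273 in NIK(KA).

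Some cell death and stress genes were higher. Bid, which links death receptors to mitochondria, was at 64.2 FPKM in NIK and 7.46 in NIK(KA), 8.60-fold higher (7.27 to 10.2). Cflar, the inhibitor of caspase 8, was 2.45-fold higher (2.21 to 2.72). In all 4 of 28 genes of that list were higher, against 5.07% of all genes. Bax, which opens the outer mitochondrial membrane, was at 298 FPKM in NIK and 198 in NIK(KA). Casp4, which encodes the receptor of intracellular lipopolysaccharide, had 443 reads in NIK against 1 in NIK(KA), the only 1 of 6 measured inflammasome genes to meet the rule. Members of the GADD45 stress family were called in opposite directions. Gadd45b was at 73.9 FPKM in NIK and 13.97 in NIK(KA), and Gadd45a at 80.7 and 195. Cdkn1a (p21) lay at the threshold, at 295 and 146 FPKM, and did not meet the rule with upper-quartile scaling or a pseudocount of 5.

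AP-1 and immediate early genes went both ways, with 6 of 39 higher and 3 lower, against 5.07% and 1.10% of all genes. Their median difference was -0.06, and 4 of the 6 higher genes were at 1 FPKM or more in NIK(KA). Ier5 was at 84.9 FPKM in NIK and 6.56 in NIK(KA), Junb at 143 and 25.04, and Myc at 20.8 and 3.05. Lower were Fosl2, at 26.1 FPKM in NIK and 58.9 in NIK(KA), the orphan receptor gene Nr4a1, at 18.5 and 39.0, and the ERK phosphatase gene Dusp5, at 3.83 and 10.2. Of 55 cell cycle genes only Cdkn2b, which encodes the inhibitor p15, met the rule, 5.13-fold higher (4.53 to 5.83). Pcna, Top2a and Cdk4 were at 649, 570 and 468 FPKM in NIK and at 642, 512 and 399 in NIK(KA).

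Some of the higher genes were abundant without active NIK. Of the 530 coding genes 8 were at 100 FPKM or more in NIK(KA), and those not covered by a list were chosen after their values were seen. Odc1, the rate-limiting enzyme of polyamine synthesis, was at 2988 FPKM in NIK, 587 in NIK(KA) and 552 in β-Gal, 5.09-fold higher in NIK than in NIK(KA) (4.99 to 5.197). It held 51676 of the 671136 reads that the 530 higher genes had in NIK. Tmsb4x, the actin-binding peptide thymosin β4, was at 744 FPKM in NIK and 158 in NIK(KA). Eno2, the neuronal enolase, was at 762 and 281, Pcbp4 at 384 and 146, and the granin gene Vgf at 740 FPKM in NIK, 350 in NIK(KA) and 224 in β-Gal.

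Metabolic genes were otherwise higher in few members. Against 5.07% of all genes, 3 of 39 genes in the glycolysis list were higher. Besides Eno2 these were Pfkfb3, whose product drives phosphofructokinase, at 40.3 FPKM in NIK and 7.09 in NIK(KA), and hexokinase 2 (Hk2), at 4.55 and 0.639. The ubiquitous enzyme genes Gapdh, Tpi1 and Eno1 were at 3493, 1614 and 1006 FPKM in NIK and at 3563, 1834 and 1263 in NIK(KA). Gls2, a glutaminase, was 3.02-fold higher (2.78 to 3.27), Dgat2, which makes triglyceride, 4.63-fold (3.96 to 5.44), and Abcg1, which exports cholesterol, 2.52-fold (2.10 to 3.04). Slc2a6, a sugar transporter, was at 59.1 FPKM in NIK and 13.1 in NIK(KA).

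Within the SNARE and exocytosis list 4 of 44 were higher and 1 was lower, where 5.07% and 1.10% of all genes were called. Its median difference was -0.07. Stxbp3 was 5.63-fold higher (4.54 to 7.05), Syt1 3.99-fold (3.32 to 4.83) and Stx6 2.21-fold (2.07 to 2.37). The 31 genes of axon guidance held 7 higher and 1 lower, led by the semaphorin receptor gene Plxnd1 at 45.5 FPKM in NIK, 4.90 in NIK(KA) and 3.25 in β-Gal. Cd82, a tetraspanin, was at 452 FPKM in NIK, 13.1 in NIK(KA) and 8.03 in β-Gal, 34.5-fold higher in NIK than in NIK(KA) (30.1 to 39.9). Igsf9, an immunoglobulin-family adhesion protein, was at 212, 3.54 and 2.57 FPKM in the same order, and the adaptor gene Stap2 at 111, 1.77 and 2.34.

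On the lower side the leading gene was Slc38a5 (chrX:8271133-8280179), a glutamine transporter of α cells. It was at 83.5 FPKM in NIK, 378 in NIK(KA) and 430 in β-Gal, 4.53-fold lower in NIK than in NIK(KA) (4.31 to 4.76). Other amino acid transporters lay within 2-fold. Slc7a5 and Slc3a2, which pair to carry large neutral amino acids, were at 251 and 301 FPKM in NIK and at 335 and 349 in NIK(KA), and Slc1a5 at 170 and 203. Slc6a15 was the single higher gene of that list, 2.13-fold (1.90 to 2.38), and did not meet the rule with upper-quartile scaling or a pseudocount of 5. The wider list of 219 solute carriers and ABC transporters held 11 higher and 5 lower genes, near the 5.07% and 1.10% of all genes, with a median of -0.06. Higher were Slc6a12, a betaine and GABA carrier, on 113 reads in NIK against 2 in NIK(KA), and Slc12a5, which exports potassium and chloride, at 53.6 and 16.3 FPKM. Slco3a1, Slco5a1 and Slc29a3 were 2.84-fold (2.58 to 3.13), 8.21-fold (5.67 to 12.3) and 2.73-fold (2.32 to 3.24) higher. Among the lower ones Slc2a5, which carries fructose, was at 57.7 FPKM in NIK and 145 in NIK(KA), Slc44a3 at 2.46 and 10.3, and the iron exporter gene Slc40a1 at 0.810 and 2.70. Nipal1 was 2.57-fold lower (2.31 to 2.88).

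Granins and granule membrane proteins build the vesicles that store glucagon. Of 26 granins and granule membrane genes 3 were lower and 1 higher, and 22 of the 26 differences were below 0, against 54.4% of all genes, with a median of -0.42. Scgn, which encodes the calcium sensor secretagogin, was at 6.996 FPKM in NIK, 31.4 in NIK(KA) and 38.9 in β-Gal, 4.49-fold lower in NIK than in NIK(KA) (3.51 to 5.82). Chga, which encodes chromogranin A, was at 633 FPKM in NIK, 1315 in NIK(KA) and 1267 in β-Gal. Rph3al, a Rab effector on granules, was 2.43-fold lower (2.13 to 2.79) and Syt13, an atypical synaptotagmin, 2.53-fold (2.43 to 2.63). The granule receptor gene Ptprn was at 985 FPKM in NIK and 1428 in NIK(KA), and Scg2 at 411 and 541. Vgf was the higher member. Ece1, a peptidase that matures endothelin, was at 37.1 and 95.7 FPKM, and Sorcs2, a sorting receptor, at 3.01 and 11.2. Cck, the gene of cholecystokinin, had 8 reads in NIK against 47 in NIK(KA), 5.48-fold lower (2.56 to 13.4), and did not meet the rule with a pseudocount of 5.

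Glucagon and its processing enzymes did not meet the rule in either direction, with 0 of 13 measured genes called and a median difference of -0.21. Gcg had a difference of -0.55, 1.47-fold less in NIK than in NIK(KA) by reads (1.45 to 1.48). Its convertase gene Pcsk2 was at 213 FPKM in NIK and 278 in NIK(KA), and the inhibitor gene Pcsk1n at 170 and 257. On the other side of 0 were the chaperone of PC2, Scg5, at 303 and 191 FPKM, the carboxypeptidase gene Cpe at 927 and 687, and the amidating enzyme gene Pam at 751 and 455. Furin was at 17.2 and 30.7 FPKM.

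Markers and transcription factors of the α cell were mostly within 2-fold. Of 17 measured α-cell markers 2 were lower, Slc38a5 and Chga, 1 was higher, Loxl4, and 14 differences were below 0, against 54.4% of all genes, with a median of -0.54. Irx2 was at 299 FPKM in NIK and 313 in NIK(KA), and Pax6 at 156 and 119. Among 33 islet transcription factors Neurod2 was lower, 3.22-fold (2.64 to 3.95). Other lower transcription factors were the neuronal bHLH gene Nhlh2, at 1.20 FPKM in NIK and 4.91 in NIK(KA), Atoh8, at 34.5 and 88.0, and Tfeb, which controls lysosome genes, at 16.4 and 35.1.

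Ion channels were called in both directions. Of 27 potassium channel genes 3 were lower and 2 higher, against 1.10% and 5.07% of all genes, with a median difference of -0.04. Kcnc4, a fast voltage-gated channel, was at 1.41 FPKM in NIK, 8.17 in NIK(KA) and 5.97 in β-Gal, 5.81-fold lower in NIK than in NIK(KA) (4.58 to 7.46). Kcnk16, the background channel TALK-1 of islet cells, was at 1.90, 9.51 and 9.17 FPKM in the same order, and Kcnh6 at 18.9, 49.8 and 57.1. Kcnj15 and Kcnt1 were the higher members. The subunits of the KATP channel, Abcc8 and Kcnj11, were at 249 and 133 FPKM in NIK and at 235 and 104 in NIK(KA). Of 32 calcium, sodium and TRP channel genes 1 was lower and 2 were higher, where 1.10% and 5.07% of all genes were called. The lower one was the T-type calcium channel gene Cacna1i, at 14.2 FPKM in NIK and 35.3 in NIK(KA), and the higher ones were Hcn3 and Ano6.

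Monoamine synthesis held genes on both sides. Ddc, the decarboxylase that makes dopamine and serotonin, was at 51.3 FPKM in NIK, 151 in NIK(KA) and 186 in β-Gal, 2.94-fold lower in NIK than in NIK(KA) (2.73 to 3.16). Th, the step before it, was at 1.79 and 4.78 FPKM in NIK and NIK(KA). Spr, which makes the cofactor that Th needs, was higher, at 61.6 FPKM in NIK, 20.95 in NIK(KA) and 13.02 in β-Gal, and so was Gad1, which makes GABA, at 9.37 and 2.77 in NIK and NIK(KA). The secreted signals Wnt4, at 27.3 FPKM in NIK and 68.9 in NIK(KA), and Bmp7, at 1.86 and 5.22, were lower in NIK. Each was the only lower gene of its list. Of 23 measured WNT and Notch genes 1 was higher, Dll1. Of 32 TGF-β, BMP and activin genes 3 were higher, Smurf1, Tgif1 and Bmp1. Of all genes 5.07% were higher and 1.10% lower. Begain and Tesc, chosen after their values were seen, were at 136 and 141 FPKM in NIK and at 288 and 292 in NIK(KA).

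**Figure D4:**
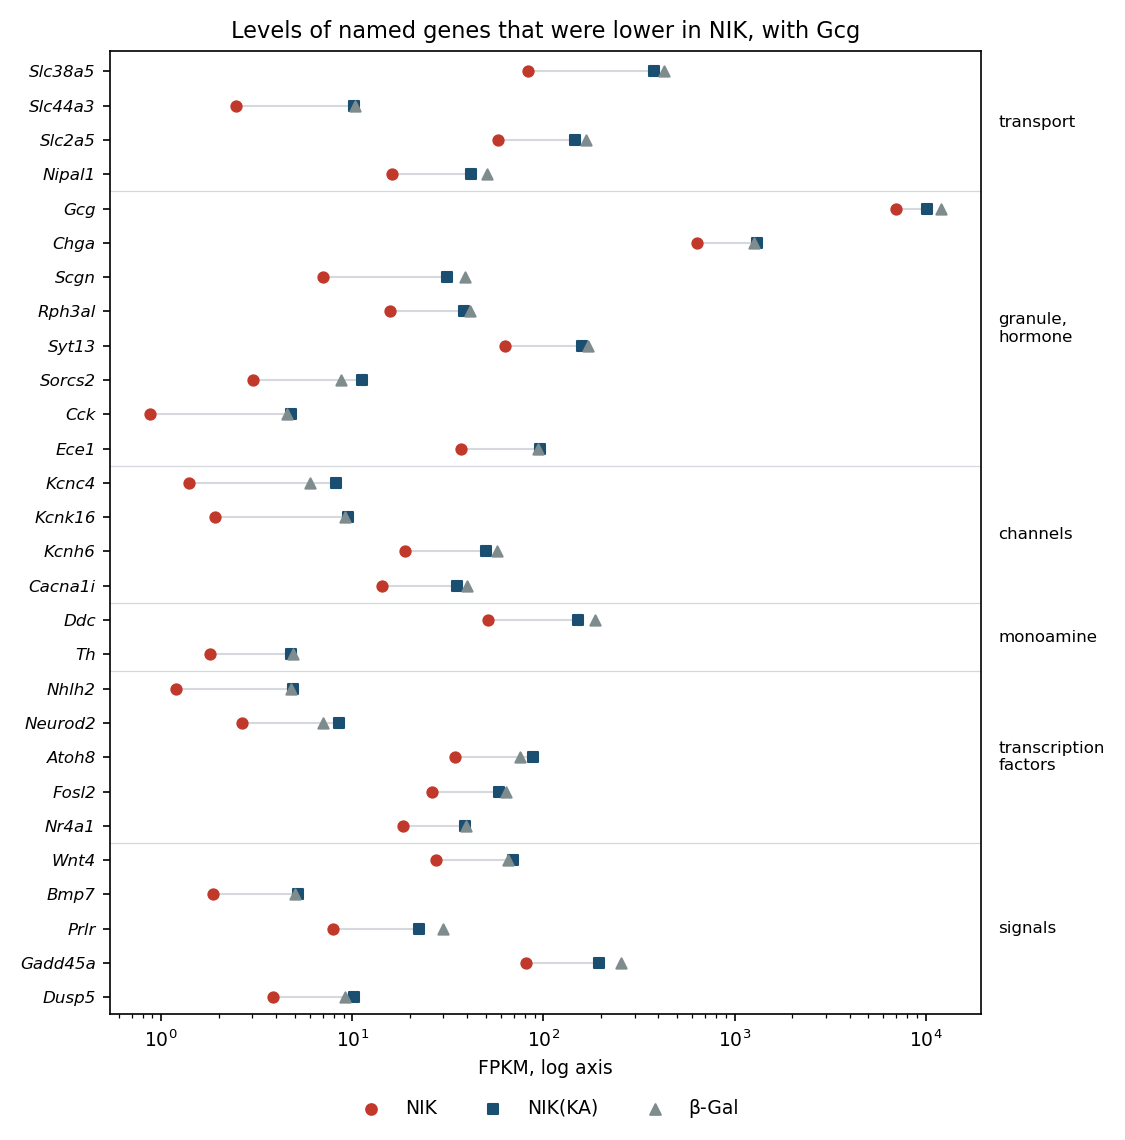
FPKM of 28 named genes on a log axis in the NIK (circles), NIK(KA) (squares) and β-Gal (triangles) libraries, 1 library each; 27 were 2-fold lower in NIK than in NIK(KA), and Gcg is shown for reference. For Slc38a5 the NIK value of 83.5 FPKM stands left of 378 in NIK(KA) and 430 in β-Gal, and in each of the 28 genes the NIK value is the lowest.

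Liver transcripts stood beside 2 of the lower genes. Alb (albumin) had 6 reads in NIK, 75 in NIK(KA) and 18 in β-Gal, and Apoa2 had 20, 60 and 24. Of 23 listed liver markers 12 had 0 reads in NIK, 2 in NIK(KA) and 11 in β-Gal. Summed over all 23 the level was 283 FPKM in NIK, 424 in NIK(KA) and 458 in β-Gal. Ttr made up most of this, at 238 FPKM in NIK, 399 in NIK(KA) and 451 in β-Gal. Without Ttr and the Serpina1 genes the sum was 4.35 FPKM in NIK, 21.8 in NIK(KA) and 4.53 in β-Gal. Apoc1, Mup3 and Mup20 had 8, 10 and 11 reads in NIK(KA) and 0 in NIK. The part of such RNA in the result was not tested, and without the liver genes and genes under 50 reads 578 genes were higher and 91 lower. Serpina1a and Serpina1b, near-identical copies on that list, were higher in NIK, with 428 and 331 reads against 38 and 30 in NIK(KA).

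Several large gene groups held few or no called genes. Of 80 subunit genes of oxidative phosphorylation 0 were called, yet 76 differences were below 0, against 54.4% of all genes, and 66 counting intervals lay below 1, against 30.3% (24.5% of all genes had an interval above 1), with a median of -0.24. Atp5b was at 2232 FPKM in NIK, 2679 in NIK(KA) and 2722 in β-Gal. The 12 measured mitochondrially encoded genes had a median of 0.06, and mt-Co1 was at 7592 FPKM in NIK and 7418 in NIK(KA). Cytosolic ribosomal proteins had a median of 0.04 over 77 genes and mitochondrial ones -0.13 over 77, each with 0 called. The unfolded protein response had 0 called of 40 and a median of -0.16, with Hspa5 (BiP) at 647 FPKM in NIK and 686 in NIK(KA). Cholesterol synthesis had a median of -0.20 over 34 genes, and heat shock proteins -0.09 over 41 with 0 called. The 18 housekeeping genes had a median of 0.09. Actb was at 485 FPKM in NIK and 348 in NIK(KA).

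**Figure D5:**
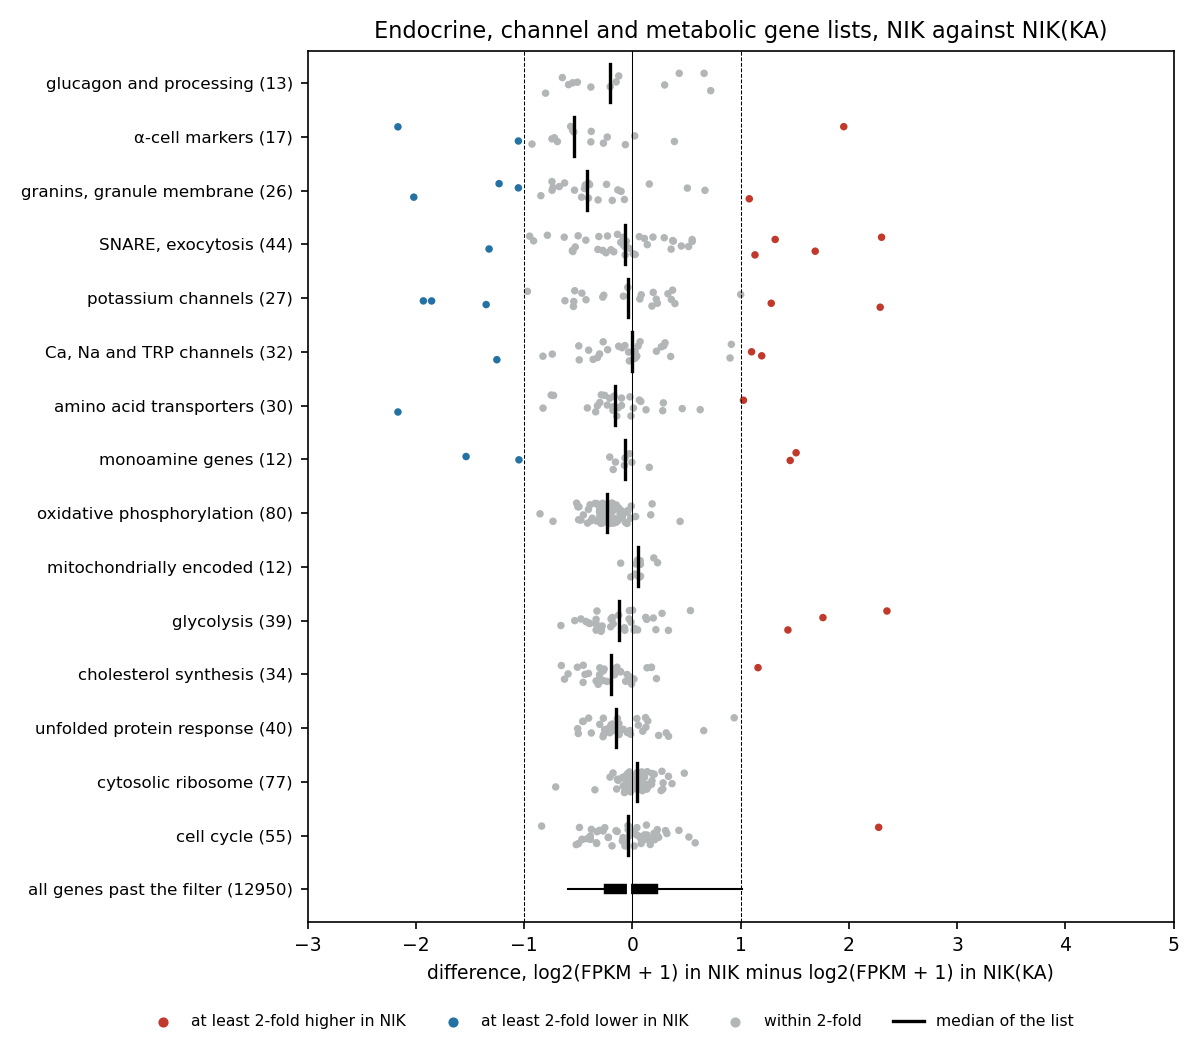
Difference of each gene that passed the filter, by list, as log2(FPKM + 1) in NIK minus log2(FPKM + 1) in NIK(KA), with the number of genes in brackets, a bar at the median and dashed lines at a 2-fold difference; the bottom row gives the 5th to 95th and 25th to 75th percentiles and the median of all 12950 genes. Granule genes (median -0.42) and α-cell markers (-0.54) sit left of 0, and the oxidative phosphorylation genes form a narrow band around -0.24.

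With the 11150 coding genes put in genomic order, 127 of the 530 higher genes (24%) had a higher gene as direct neighbour, and 4 of the 91 lower genes (4.4%) a lower one. Of all 11150 coding genes, 9.1% had a higher gene as direct neighbour and 1.61% a lower one. There were 4 runs of 4 higher genes. On chromosome 17 these were Psmb9, Tap1, Psmb8 and Tap2 (chr17:34181987-34216321) and H2-D1, H2-Q4, H2-Q6 and H2-Q7 (chr17:35262730-35443773), on chromosome 5 Gbp9, Gbp4, Lrrc8b and Lrrc8c (chr5:105077630-105613018), and on chromosome 9 Mmp13, Tmem123, Birc2 and Birc3 (chr9:7272514-7873186). Runs of 3 included Icam1, Icam5 and Tyk2 on chromosome 9 and Bcam, Bcl3 and Ceacam16 on chromosome 7. Some neighbours are copies of one another, in which a shared read can be counted for either. The genes of these runs follow from their position and were named after their values were seen.

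Non-coding genes made up 127 of the higher and 51 of the lower genes. The term covers every type other than protein-coding, pseudogenes and IDs not in GENCODE M21 included. Among long non-coding types 49 of 1007 past the filter were higher and 8 lower. Of the 49, 12 lay within 5 kb of a higher coding gene, such as Gm16174 beside Bcl3 and Gm13807 beside Cd82, and without a stated strand setting their reads cannot be told from those of the neighbour. Gm29461, a long intergenic RNA gene on chromosome 1, had 1113 reads in NIK against 0 in NIK(KA), at least 398-fold higher. Ptprv was at 23.5 FPKM in NIK and 0.257 in NIK(KA), and AW112010 had 110 reads in NIK against 0 in NIK(KA). Genes of small RNAs supplied 55 of the higher and 31 of the lower genes, but 47 and 29 of these had fewer than 20 reads over both libraries, and the interval included 1 for 45 and 27 of them.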

How the data were processed

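Total RNA of 3 αTC1-6 cultures, 1 library each, was sequenced on the Illumina platform, per the labels' protocols. The authors deposited FPKM values for 52948 gene IDs. TopHat2, HTSeq 0.6.1 and GRCm38 are named in the submitters' processing notes, which give neither the release of the annotation nor the strand setting or the program behind the FPKM. Nothing in the labels says that the libraries come from separate experiments, and there is no replicate. Reads were recovered from the deposited FPKM: values of 26584 of 26584 detected genes were whole reads within 0.001. The recovered reads gave the printed read numbers, the fold changes and their exact conditional binomial intervals. They also gave the shares of the libraries and the cut-offs stated in reads. The main calls used the FPKM alone. Names, types and positions come from GENCODE M21. Genes were called at a difference of at least 1 in log2(FPKM + 1), with no test. Named genes were drawn from the 25 leading coding genes in each direction and from 72 lists. Each list offered up to 6 called members in each direction and 3 uncalled members. Whole NF-κB, prohormone and marker lists and 5 non-coding genes in each direction were also drawn on. Not all of these genes are named in the text, and other genes were chosen after their values were seen. The members and the lists were chosen with earlier results of these data known. Python 3.11.15, pandas 2.3.3, NumPy 2.4.6, SciPy 1.17.1 and matplotlib 3.10.9 were used, and the code was tested on simulated data. Alternatives changed the pseudocount, the filter, the scaling and the gene set. Some genes are not reported here.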

Additional observations from a re-analysis of the deposited data

How the results depend on the processing

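The count of higher genes (657) fell to 335 with a pseudocount of 5 and to 368 with a mean FPKM of at least 5, and lay between 530 and 850 under the other alternatives. The count of lower genes (142) was 305 with a pseudocount of 0.1 and 34 with one of 5. It was 217 with no filter beyond 1 read, 69 with a mean FPKM of at least 5, 91 with protein-coding genes only and 91 without liver genes and genes under 50 reads, an alternative chosen after seeing the data. Equal sums per library gave 700 higher and 187 lower genes, median-ratio scaling 681 and 136, and upper-quartile scaling 629 and 153. With the added demand that the counting interval exclude 1, 608 and 110 genes were called. Where an alternative tests more or fewer genes, that number itself shifts the counts; for the pseudocount and the scaling the cause was not tested. With 1 library in each group there is no replicate to leave out. No paired analysis was possible because each group has 1 library.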
